A study of Mus musculus with 4 samples.

Results

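Secreted Wnt antagonists and Frizzled receptors were examined through 10 genes: Sfrp1, Sfrp2, Sfrp5, Frzb, Wif1, Dkk2, Dkk3, Fzd1, Fzd4 and Fzd7. Members were the probe sets whose platform annotation gives exactly 1 gene symbol from this set. The rule found 21 probe sets for the 10 genes, of 45101 probe sets and 18193 genes on the array. Total RNA of mouse eye tissue, labelled retina, was hybridised to 4 one-colour oligonucleotide arrays. The 2 control arrays came from control animals, and the labels call the second a technical replicate of the first, so they were averaged and counted as 1 control sample. The 2 transgenic arrays came from animals in which myocilin, a glycoprotein that cells secrete, was expressed into the aqueous humor, and were taken as 2 samples. The labels do not say that separate animals were used, so the spread behind every p-value and interval may be technical. That spread came from the 2 transgenic samples, with 1 residual degree of freedom. It was moderated toward probe sets of like brightness, with 10.3 prior degrees of freedom. The strain, age, promoter of the transgene and number of animals are not given in the sources used here.

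Wnt ligands are secreted lipid-modified proteins that bind the cysteine-rich domain of Frizzled receptors together with the co-receptors Lrp5 or Lrp6, which stabilises beta-catenin and turns on target genes. Secreted Frizzled-related proteins and Wif1 bind the ligands outside the cell, while Dickkopf proteins bind the co-receptors. In the eye this pathway shapes the ciliary margin, lens and pigment epithelium, Fzd4 serves the growth of retinal vessels as the receptor of Norrin, and Sfrp1 raises intraocular pressure when it is overexpressed in the anterior chamber. The labels ask how retinal gene expression responds to much myocilin around the retina.

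No member probe set passed the test. On its brightest probe set, each member gene lay between the 5th and 95th percentile of all genes tested, −0.40 and 0.37. The dimmest probe set of Fzd4, at 0.61, lay above that band. The model was limma's moderated test on log2(signal + 16), adjusted by Benjamini-Hochberg over 27022 probe sets, and an adjusted p under 0.05 counted as a call. Of the 21 member probe sets, 18 were bright enough to be tested, and each of the 10 genes had at least 1 of them. Of these 18, 0 passed in limma, and 1, a probe set of Dkk3, had an unadjusted p under 0.05. Over all probe sets tested the shares were 0.0777% called and 7.06% at that unadjusted p. Changes of the members ran from −0.27 to 0.61 on the log2 scale, with adjusted p between 0.679 and 0.995. Counted by gene, with the brightest probe set standing for each, the median log2 change was 0.13 over the 10 members. Of these, 6 were above and 4 below 0, and the median over all 12722 genes tested was −0.01. Counted by probe set, the median was 0.03 over the 18 of the members, with 10 above and 8 below 0. Over all probe sets tested it was −0.02.

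Most member genes were clearly detected. The trimmed mean of every array, 150, served as a reference level, and the filter corresponded to a signal of about 30.0. Signals exceeded 150 on all 4 arrays for 13 of the 21 probe sets, which belong to 7 genes: Sfrp1, Wif1, Dkk2, Dkk3, Fzd1, Fzd4 and Fzd7. They stayed below 150 on all 4 arrays for 7 probe sets, and the 1 probe set of Sfrp2 lay on both sides of it. Because brightness depends on the probes as well as on the transcript, these signals are not ranked as transcript levels.

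**Figure D1:**
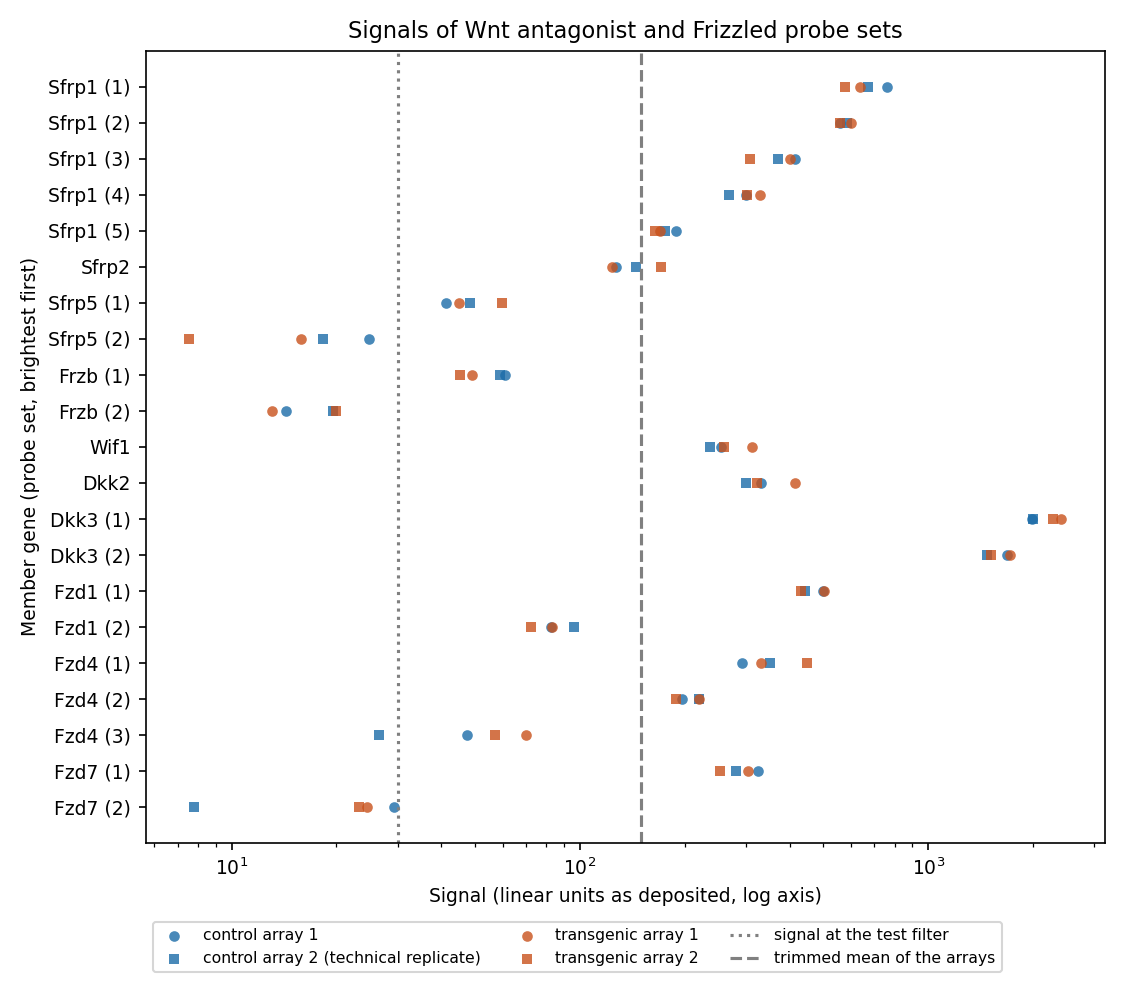
Signals of the 21 member probe sets on the 4 arrays, on a log axis in the linear units deposited by the authors, with blue for control and orange for transgenic arrays. Rows are ordered by gene and, within a gene, from the brightest probe set down; the dashed line marks the trimmed mean of 150 and the dotted line the filter at about 30.0, below which the dim probe sets of Sfrp5, Frzb and Fzd7 lie on all 4 arrays.

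The arrays labelled retina carried much signal from other tissues of the eye. Of 5 corneal and surface epithelium markers 5 exceeded 150 on all 4 arrays, led by Krt12 and Aldh3a1, and so did 9 of 11 pigment epithelium and melanocyte markers, 9 of 9 skeletal muscle markers, 8 of 8 keratocyte and scleral fibroblast markers and 7 of 8 markers of ciliary epithelium and trabecular meshwork. Of the rod photoreceptor markers 0 of 9 did, with a summed signal between 264 and 351 on the 4 arrays, and 2 of 9 vascular endothelium markers did. Summed signals were higher on both transgenic arrays for fibroblast markers (29497 and 29397 against 23325 and 21985), pigment markers (37177 and 40127 against 32249 and 32285), muscle markers (19943 and 19747.6 against 11854 and 12187) and lens markers (687 and 687 against 196 and 253). They were also higher on both for ciliary and meshwork markers (8525 and 8069 against 7374 and 7501) and for Mueller glia markers other than the member Dkk3, which is in that list (16004 and 16124 against 14405 and 14412). These 6 directions were the same after quantile normalization and median centring. A sum follows the brightest genes of its list. Changes were below 0 for 3 of 8 ciliary and meshwork genes and 2 of 8 Mueller glia genes, where the 8 count Dkk3, itself above 0. They were below 0 for 1 of 8 fibroblast, 1 of 10 pigment and 0 of 9 muscle genes, beside 6602 of all 12722 genes tested. The corneal sum had no settled direction, with 39157 and 42179 against 38252 and 38121 as deposited and 38863 and 37904 against 40797 and 40045 after quantile normalization. Marker genes that passed in limma were Kera among 8 fibroblast genes, Rpe65 and Rgr among 10 pigment genes and Mb, Myl1 and Mylpf among 9 muscle genes tested, all higher. The lens genes Cryaa, Cryba1 and Crygb also passed, but they cleared the filter only through the transgenic arrays, with control means of 13.6, 25.9 and 19.2 against 101, 145 and 110, so no count of lens genes is read from them. In simulated data of this design a larger share of the calls was false than the threshold allows, and these calls carry that limit. The part of tissue composition in the member values was not tested, and in bulk tissue fewer cells of a type and less RNA per cell cannot be told apart.

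Among the secreted Frizzled-related proteins, Sfrp1 had the most probe sets, and they did not share a direction. Sfrp1 binds Wnt ligands and keeps them from their receptors. Its brightest probe set, 1428136_at, had control signals of 759 and 669.9 and transgenic signals of 635 and 577. Both transgenic arrays were below both control arrays there, with a log2 change of −0.23 ± 0.13 (SE; 95% interval −0.51 to 0.05) and a limma adjusted p of 0.787. The next probe set, 1460187_at, had signals of 559 and 585 against 599 and 559, a change of 0.02 ± 0.13 (adjusted p = 0.995). Groups overlapped there. Probe set 1448395_at had signals of 413 and 369.7 against 399.6 and 307 (−0.15 ± 0.17), and 1416594_at had 300.0 and 268 against 329 and 303 (0.14 ± 0.15). On 1438620_x_at they were 188 and 175 against 169 and 165 (−0.11 ± 0.18). So 3 of the 5 changes were below 0 and 2 above, and the mean over the 5 was −0.07. Probe sets 1460187_at, 1448395_at and 1416594_at were designed on 1 sequence record, and their changes had different signs. Both transgenic arrays lay below both controls for the brightest and the dimmest probe set, and above both for 1416594_at; after median centring the groups of the dimmest overlapped.

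The other genes of this family gave weaker signals. Sfrp2, another Wnt-binding antagonist, had control signals of 127 and 145 and transgenic signals of 123 and 171. The transgenic arrays lay on either side of both controls, and the change was 0.09 ± 0.22 (95% interval −0.40 to 0.58; adjusted p = 0.980). Without transgenic array 2 the value was −0.12 and without transgenic array 1 it was 0.30, so the sign rested on which of the 2 was kept. Sfrp5, also a Wnt-binding antagonist, had signals of 41.2 and 48.2 against 44.9 and 59.6 on its brighter probe set, where groups overlapped (0.16 ± 0.32, interval −0.53 to 0.86; adjusted p = 0.970). Its dimmer probe set was under the filter and untested, with 24.7 and 18.3 in control and 15.8 and 7.55 in transgenic. Frzb, known also as Sfrp3, had signals of 60.7 and 58.9 against 49.1 and 45.1 on its brighter probe set. Both transgenic arrays were lower there, with a change of −0.27 ± 0.30 (interval −0.93 to 0.40; adjusted p = 0.935). The other Frzb probe set, designed on the same record, was under the filter, at 14.3 and 19.5 against 13.0 and 19.9.

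Wif1, Dkk2 and Dkk3, antagonists of other families, had changes above 0 that did not pass. Wif1, which binds Wnt ligands through its WIF domain, had control signals of 255 and 236 and transgenic signals of 312 and 259. Its groups did not overlap, though transgenic array 2 exceeded the higher control only narrowly, and the change was 0.20 ± 0.17 (interval −0.17 to 0.57; adjusted p = 0.890). Dkk2, a ligand of Lrp5 and Lrp6, had signals of 331 and 299 against 414 and 321. Groups overlapped, and the change was 0.21 ± 0.17 (interval −0.17 to 0.58; adjusted p = 0.885). For Wif1 the change was 0.33 from transgenic array 1 alone and 0.07 from array 2, and for Dkk2 it was 0.38 and 0.03.

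Dkk3, a divergent Dickkopf whose place in Wnt signalling is less settled, had the smallest p among the members. On its brighter probe set, 1417312_at, the control signals were 1984 and 2004 and the transgenic signals 2407 and 2285. All transgenic values exceeded the control values, from a control signal of 1994 to 2346 ± 85.7 (SD, n = 2), or 1.17-fold (95% interval 1.01 to 1.37). In limma the change was 0.23 ± 0.10 with an unadjusted p of 0.0415 and an adjusted p of 0.679. The second probe set, 1448669_at, was designed on the same sequence record and had signals of 1682 and 1472 against 1716 and 1517. Its groups overlapped, and the change was 0.04 ± 0.11 (adjusted p = 0.986).

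Of the Frizzled receptors, Fzd1 and Fzd7 had log2 changes near 0 on their bright probe sets, and neither passed. Fzd1, a Wnt receptor, had control signals of 499 and 443 and transgenic signals of 502 and 429.9, with a change of −0.02 ± 0.14 (interval −0.33 to 0.30; adjusted p = 0.995). Its other probe set had 82.8 and 96.4 against 83.4 and 72.5 (−0.17 ± 0.25). Groups overlapped on both, and the sign of the brighter one turned after median centring, to 0.01. Fzd7, a Wnt receptor of progenitor cells and epithelia, had signals of 323 and 280.4 against 304 and 252, again overlapping (−0.11 ± 0.17, interval −0.48 to 0.25; adjusted p = 0.956), and its sign turned to 0.014 from transgenic array 1 alone. Its dimmer probe set was under the filter, at 29.2 and 7.78 in control and 24.5 and 23.2 in transgenic, so the control replicates differed from each other by more than the groups did.

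Fzd4 had the largest change among the members, on its dimmest probe set. There, on 1449416_at, the control signals were 47.5 and 26.4 and the transgenic signals 69.8 and 57.2. Both transgenic arrays were above both controls, and the change was 0.61 ± 0.30 (interval −0.06 to 1.28; adjusted p = 0.751), while the 2 control arrays differed from each other by 0.58. The brightest Fzd4 probe set, 1419301_at, designed on the same record, had signals of 293 and 352 against 331 and 449. Its groups overlapped, and the change was 0.25 ± 0.18 (interval −0.14 to 0.64; adjusted p = 0.852), with 0.04 from transgenic array 1 alone and 0.46 from array 2. On the remaining one, 1434756_at, the signals were 196 and 219.8 against 219.7 and 189, a change of −0.03 ± 0.18. Partners of Fzd4 in Norrin signalling were also measured. Ndp, which encodes Norrin, had a change of 0.00 ± 0.38 at signals of 32.9 and 35.0 against 26.4 and 43.2. Tspan12, the tetraspanin of the receptor complex, had signals of 262 and 268 against 198 and 258, a change of −0.21 ± 0.19. The Lrp5 probe set was under the filter, at 20.6 and 6.13 against 23.4 and 13.0.

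**Figure D2:**
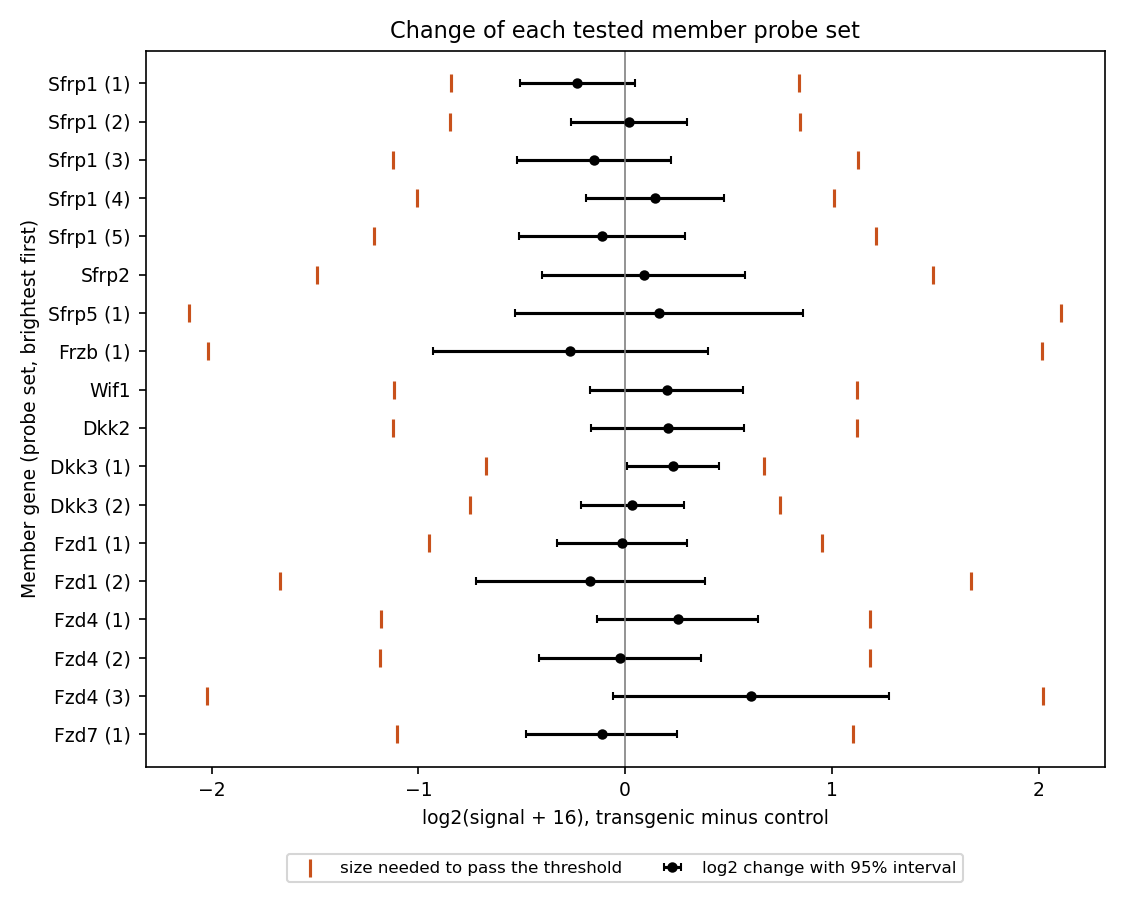
Log2 change of the 18 tested member probe sets, transgenic minus control, with 95% intervals from limma (n = 2 transgenic samples against 1 control sample). Orange ticks mark the size at which the same standard error would have given the largest unadjusted p that passed, 3.15e-05; no point reaches its tick, and 17 of the 18 intervals hold 0, the exception being the brighter probe set of Dkk3.

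The precision differed much between members. Intervals stayed within a 2-fold change in either direction for 17 of the 18 probe sets tested, and within 1.5-fold for 13. The exception at 2-fold was the dim probe set of Fzd4, whose interval reached 2.43-fold. Changes inside each interval fit the data of that probe set, and a p over the threshold does not show that signals were equal. The largest unadjusted p that passed over all probe sets was 3.15e-05. The standard errors are moderated and lean on probe sets of like brightness. With them the members would have needed a log2 change between 0.67, for Dkk3, and 2.11, for Sfrp5, to reach that p. On that scale the interval of each gene's brightest probe set stayed within 2-fold for all 10 genes. For the dim probe sets of Frzb and Sfrp5 this does not bound the fold change of signal itself at 2. With 1 residual degree of freedom and 1 control sample, the fit assumes that control animals vary like the transgenic samples.

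The median change between the groups was no larger than the median differences between single arrays within them. Over the 18 probe sets tested the median size of the log2 change was 0.16, against 0.16 between the 2 control arrays and 0.21 between the 2 transgenic arrays. Over all probe sets tested these medians were 0.159, 0.155 and 0.166. A change between means of 2 arrays varies less than a difference between single arrays, so the sizes are not like for like. The change was larger than both within-group differences for 5 probe sets, namely 1 each of Frzb, Dkk3 and Fzd4 and 2 of Sfrp1, against 32.2% of all probe sets tested. It was smaller than the difference between the transgenic arrays for 11 of 18 and smaller than that between the technical control replicates for 10. Groups did not overlap for 7 of 18, 4 higher and 3 lower in the transgenic arrays, or 38.9%. Of all probe sets tested 44.7% did not overlap, 21.1% higher and 23.6% lower, so the members' share was near the background.

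**Figure D3:**
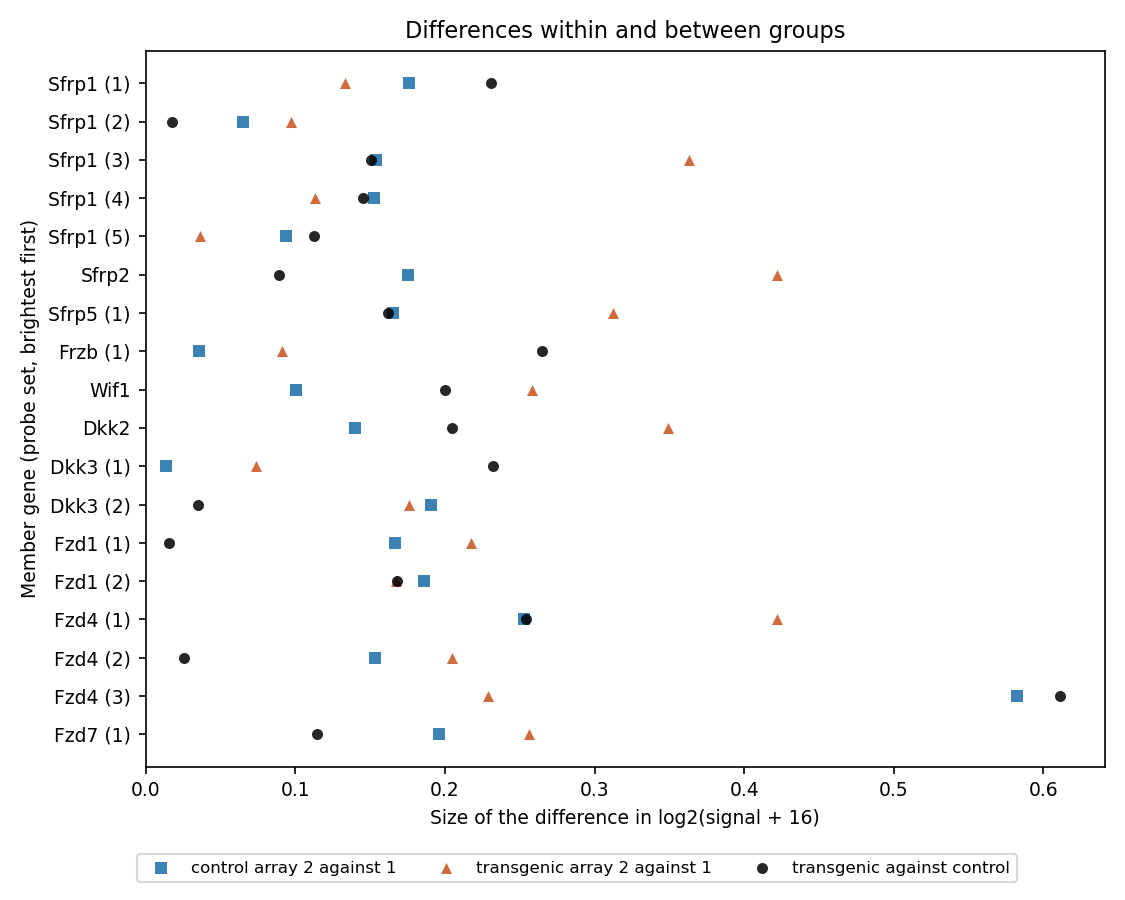
Size of 3 log2 differences for each of the 18 tested member probe sets: between the 2 control arrays (blue squares), between the 2 transgenic arrays (orange triangles) and between the groups (black circles). Black lies beyond both colours for 5 probe sets, and the 2 differences of the dim Fzd4 probe set, 0.61 between groups and 0.58 between control arrays, are the farthest right.

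Other genes of the Wnt pathway were read from the same fit, through lists of antagonists, receptors, ligands, transducers and targets. Besides the members, 102 of 104 listed genes were on the array with a probe set for them alone, and 82 were tested. Of these, 0 passed in limma, against 0.126% of all genes tested, and 8 had an unadjusted p under 0.05, or 9.76% against 8.06%; 3 were higher and 5 lower, beside 4.65% and 3.41% of all genes. Groups did not overlap for 33 of the 82, or 40.2% against 46.8%; 13 were higher and 20 lower, beside 22.8% and 24.0% of all genes. The median log2 change was −0.04.

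The remaining Frizzled receptors were mostly below 0, and none passed in limma. Of 6 tested, 5 had changes below 0, with a median of −0.21. Both transgenic arrays were below both controls for 3 of the 6, beside 24.0% of all genes tested. Among these 3, the groups of Fzd8 overlapped after quantile normalization. Fzd6, a receptor known for tissue polarity, had signals of 1345 and 1355 against 1035 and 1083, a change of −0.35 ± 0.11 with an unadjusted p of 0.00899 and a limma adjusted p of 0.486. Its second probe set stood at −0.19 and its dimmest at 0.46. Fzd5, a receptor needed in eye development, had signals of 190.0 and 181 against 142 and 114 (−0.49 ± 0.21; adjusted p = 0.665), and Fzd8 stood at −0.30 ± 0.29. With the mean over each gene's probe sets in place of the brightest one, the median of the 6 was −0.06, while the members Fzd1, Fzd4 and Fzd7 stood at −0.09, 0.28 and −0.11.

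Among the other antagonists, 4 of 6 tested genes were above 0 with a median of 0.14. Sostdc1, which blocks Wnt and BMP signalling, had signals of 282 and 308 against 407 and 354. Its groups did not overlap (0.35 ± 0.15; adjusted p = 0.679), and its second probe set stood at 0.53 ± 0.23. Dkk1, a blocker of Lrp6, stood at 0.24 ± 0.17, and Notum, which removes the lipid of Wnt ligands, at 0.27 ± 0.33. Of the ligands 12 of 19 were tested, with a median of 0.05 and Wnt3a at 0.48 ± 0.31, Wnt16 at 0.34 ± 0.40 and Wnt11 at 0.34 ± 0.24. Wls, which carries Wnt ligands to the cell surface, had signals of 1827 and 1854 against 2111 and 2039. All 3 of its tested probe sets were higher on both transgenic arrays, at 0.17, 0.22 and 0.25, with adjusted p between 0.738 and 0.805, while Porcn, the enzyme that attaches the lipid, stood at 0.07 ± 0.26.

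Co-receptors and R-spondin receptors showed no common direction. Of 7 co-receptors and alternative receptors tested, 2 were above and 5 below 0, with a median of −0.04. Kremen1, a Dickkopf receptor, stood at 0.42 ± 0.29 through 1 transgenic array (signals of 182 and 188 against 179 and 358), Ptk7 at −0.40 ± 0.37, also through 1 array (−0.90 from transgenic array 1 and 0.10 from array 2), and Lrp6 at −0.23 ± 0.14. In the R-spondin list 3 of 6 were above 0, with Rspo2, a Wnt amplifier, at 0.31 ± 0.18, Lgr4, an R-spondin receptor, at −0.14 ± 0.15 and Rnf43, which removes Frizzled receptors from the cell surface, at −0.35 ± 0.39. Planar cell polarity genes were below 0 for 6 of 8, with a median of −0.16, among them Celsr2 at −0.29 ± 0.22, Scrib at −0.25 ± 0.22 and Celsr1 at −0.21 ± 0.20.

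Target genes of beta-catenin did not move one way. Of 17 tested, 9 were above and 8 below 0, with a median of 0.03. Bmp4, a growth factor, had signals of 269 and 208 against 404 and 302 (0.54 ± 0.18; adjusted p = 0.534), and Jun, a transcription factor, had 415 and 558 against 617 and 683 (0.42 ± 0.13; adjusted p = 0.468). Cd44, a hyaluronan receptor, had 2062 and 2002 against 1524 and 1602 (−0.38 ± 0.10; adjusted p = 0.397). On these 3 genes the groups did not overlap, and none passed in limma. Axin2, the feedback inhibitor often used as a reporter of the pathway, had signals of 151 and 179 against 156 and 102, overlapping groups and a change of −0.34 ± 0.24 (adjusted p = 0.861). Of the 24 intracellular pathway genes, 16 were below 0 with a median of −0.07. Tle3, a co-repressor, had signals of 275 and 321 against 184 and 199 (−0.59 ± 0.17; adjusted p = 0.412), and Csnk1e, a kinase of the pathway, stood at −0.43 ± 0.21.

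**Figure D4:**
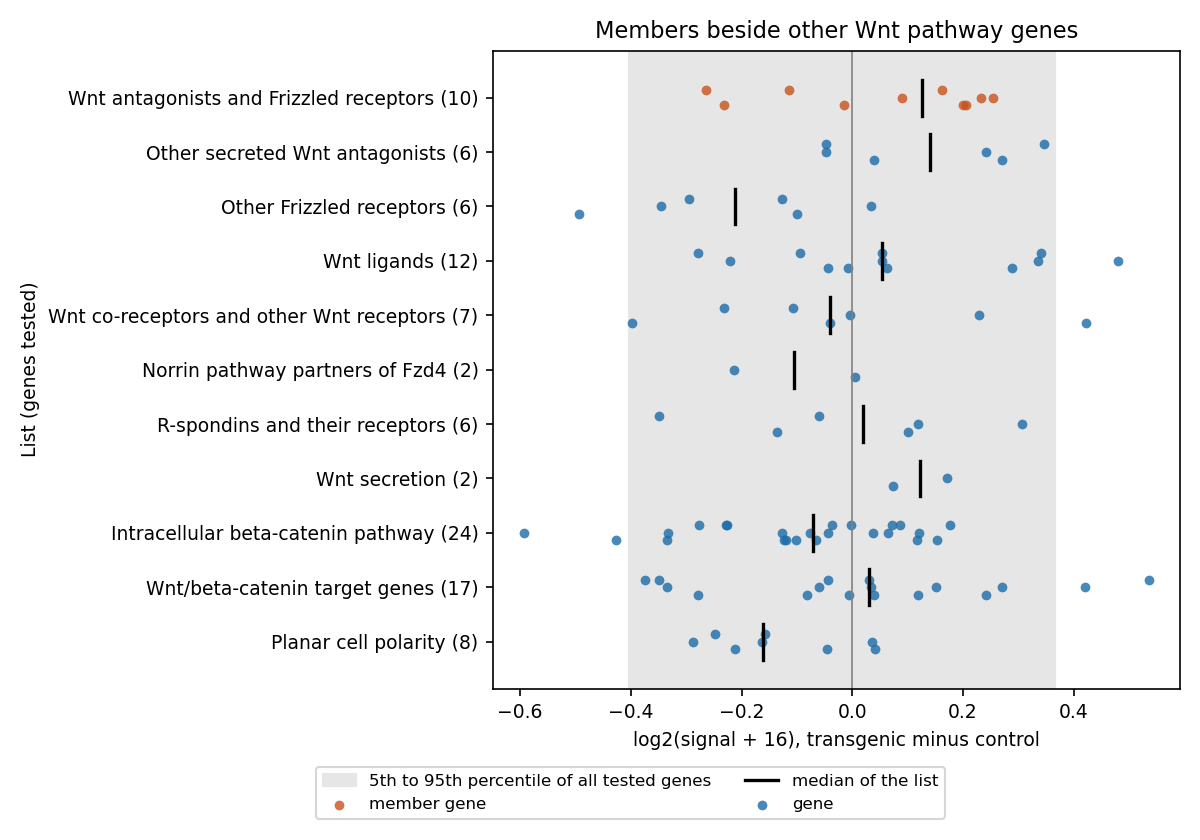
Log2 change of each tested gene on its brightest probe set, by list, with members in orange, other Wnt genes in blue and black bars for list medians; some genes are in more than 1 list. The grey band spans the 5th to 95th percentile of all tested genes, from −0.40 to 0.37, and all 10 member genes lie inside it.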

How the data were processed

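The deposited values are linear signal intensities by the authors, 1 per probe set and array. The software that made them is not given in the sources used here. Gene names came from the platform annotation, which gives 1 symbol for 34958 probe sets. Intensities were kept as deposited, since trimmed means (2% cut at each end) differed by under 5%, and 64 array controls were left out. Values were transformed as log2(signal + 16), a scale that understates changes of dim probe sets. Probe sets above the 40th percentile of mean log2 were tested with limma 3.58.1 in R 4.3.3, with control arrays averaged and an intensity trend (1 residual and 10.3 prior degrees of freedom). Intervals are at 95%. With 4 arrays, their number limits the precision. On simulated data the fit recovered signs and sizes, and unadjusted p-values were close to nominal. With 1 residual degree of freedom, however, the prior was poorly estimated and false calls exceeded the threshold's share in each run. The simulation drew values from the fit's own prior, with like spread in control and transgenic samples. It therefore cannot show that p-values are nominal for these arrays. Named genes are all members, up to 3 genes with the largest change in each other Wnt list, and, of each marker list, genes that passed and up to 2 of the brightest. Members and lists were chosen with earlier results of these data known. The transgene's own gene was not analysed here, and no genome build is named, so no positions or sequences are given.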

Additional observations from a re-analysis of the deposited data

How the results depend on the processing

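The count of 0 member probe sets called held under quantile normalization, median centring, pseudocounts of 1 and 64, no filter, a filter at the 60th percentile, 4 separate arrays without a block, no intensity trend, robust moderation and without either control array. With 4 arrays and the replicate number as a block, 1 member probe set passed, that of Dkk3 (limma adjusted p = 0.0146), with 7 other Wnt genes and 1740 probe sets in all; that fit takes technical replicates as samples. Deviations of same-numbered arrays correlated at 0.10. Whether arrays of the same number were processed together was not tested. Over all probe sets the count of calls was 21, and became 39 after quantile normalization, 56 after median centring, 135 with 4 separate arrays and 0 without the filter or the trend, where 0 members and 1 had an unadjusted p under 0.05. Without control array 1 or 2 it was 34 or 42. Leaving out a transgenic array left no test.

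Signs of values that did not pass turned in some settings. On other probe sets the change was 0.14 and 0.018 for Sfrp1, −0.026 for Fzd4, −0.059 for Dkk1, 0.46 for Fzd6, −0.33 and −0.017 for Kremen1, 0.016 for Lrp6 and 0.18 for Celsr2. Fzd1 was 0.015 after median centring, and ran from −0.12 to 0.093 with 1 array left out. Aldh3a1 was −0.087 after quantile normalization. With 1 array left out, values ran from −0.13 to 0.67 for Notum, from −0.24 to 0.92 for Wnt16, from −0.24 to 0.24 for Ndp, from −0.13 to 0.28 for Porcn, from −0.24 to 0.014 for Fzd7, from −0.90 to 0.10 for Ptk7, from −0.34 to 0.064 for Lgr4 and from −0.049 to 0.89 for Kremen1, and Ndp was −0.0058 at a pseudocount of 1. The marker genes Kera, Rpe65, Rgr, Mb, Myl1 and Mylpf lost their call without the filter and without the trend. So did the lens genes Cryaa, Cryba1 and Crygb, which cleared the filter only through the transgenic arrays. Crygb lost it also at a pseudocount of 64 (limma adjusted p = 0.0637). What depth limits here is signal: the dim probe sets of Sfrp5, Frzb and Fzd7 had no test.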
